A study of Fragaria vesca with 12 samples.

Results

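Pathogenesis-related (PR) proteins are small, mostly secreted or vacuolar plant proteins that accumulate after infection, wounding, cold and senescence. Chitinases cut the chitin of fungal walls, β-1,3-glucanases cut the β-1,3-glucan of fungal walls and plant callose, and thaumatin-like proteins and osmotins permeabilise fungal membranes. PR-4 proteins bind chitin, PR-1 proteins belong to the CAP superfamily, and the MLP-like proteins share the fold of the birch pollen allergen Bet v 1 (the PR-10 class), which binds small hydrophobic ligands and in strawberry includes fruit allergens. The genes of these families were described here in ripe strawberries after harvest and after 3 kinds of storage.

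Members were all genes whose Rosaceae description names a chitinase, a thaumatin, an osmotin, a pathogenesis-related protein, an MLP-like protein or a glycosyl hydrolase family 17 (GH17) protein, without descriptions that name ethylene. This gave 147 of the 34008 genes of the table: 27 chitinases, 31 thaumatin-like proteins and osmotins, 32 GH17 proteins, 28 MLP-like proteins, and 29 PR-1, PR-4 and other PR proteins. The rule also asks for the words β-1,3-glucanase with a comma, which matched no gene, because the table writes that name with _ in place of the comma. The 9 genes written that way are not members and are described beside the GH17 genes.

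The fruit were ripe Mara des Bois strawberries, labelled Fragaria vesca, in 4 conditions of 3 libraries each. This cultivar name is usually given to an octoploid strawberry, and if the fruit were octoploid, the value of 1 gene of the diploid reference would sum reads of several gene copies. CO2-cold stored fruit (CCS) spent 7 days at 1 °C, the first 2 of them under 18% CO2, 18% O2 and 64% N2 and the other 5 in air, and then 1 day at 20 °C. Air-cold stored fruit (ACS) spent the same 7 days at 1 °C in air and then 1 day at 20 °C, and non-cold stored fruit (NCS) were held for 2 days at 20 °C and 80% humidity. Fruit after harvest (AH) were taken within 2 h and are the control of all 3. Each library pooled at least 50 fruit per the labels. Cold-stored fruit were kept in 1 container per gas, so the gas and its container cannot be told apart, and replicates are batches of fruit from 1 harvest, whose spread is what the p-values measure. RNA came from powdered whole fruit, so fewer cells of a type and less RNA per cell cannot be told apart.

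Levels are RPKM, read counts divided by gene length and by library size, and libraries held 64.2 to 119.9 M reads. At the median gene length 10 reads corresponded to 0.0338 to 0.0632 RPKM. Of the 147 members, 12 were listed at 0 in every library, and 62 were above 0 but never reached 0.5 RPKM in 3 of the 6 libraries of a comparison, with a highest single value of 0.619 RPKM. The remaining 73 entered at least 1 comparison, and 64 entered all 6. The 74 untested members were 22 of the 29 PR-1, PR-4 and other PR genes, 16 thaumatin-like genes, 15 chitinases, 15 GH17 genes and 6 of the 28 MLP-like genes. Some of them rest on few reads and others do not, and the filter, not a test, left them out. The thaumatin-like gene FvH4_2g26400, for example, had 5 reads in the CCS libraries, 2 in ACS, 1 in NCS and 72 in AH. Markers of ripe flesh were 8 genes described with flavonoid and pectate lyase names, 3 of which averaged at least 0.5 RPKM. They summed to 1082 to 1159 RPKM in CCS, 934 to 1004 in ACS, 1184 to 1210 in NCS and 923 to 1025 in AH. No gene carried a pollen-specific name. The achene list (68 genes, mostly described as lipid-transfer and 2S albumin proteins) summed to 5804 to 6748 RPKM in CCS, 6055 to 7355 in ACS, 6257 to 6367 in NCS and 11801 to 13032 in AH, so that stored fruit lay below AH. Its 9 oleosins, set apart after the values were seen, summed to 516 to 1676 RPKM in CCS, 996 to 2109 in ACS, 308 to 408 in NCS and 1249 to 1742 in AH. The 22 genes of the green tissue list summed to 13.5 to 18.1 RPKM in CCS, 9.94 to 13.5 in ACS, 6.85 to 7.80 in NCS and 26.6 to 34.4 in AH, and the part of these lists in the results was not tested.

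Summed over all members, levels were 5254 to 5318 RPKM in CCS, 6455 to 6767 in ACS, 6473 to 6628 in NCS and 2337 to 3241 in AH. All 9 stored libraries were above the 3 AH libraries, and all 3 CCS libraries were below the other stored ones. The MLP-like genes made up most of these sums, with 4632 to 4717 RPKM in CCS, 5605 to 5846 in ACS, 5739 to 5928 in NCS and 1911 to 2774 in AH. The PR-1, PR-4 and other PR genes were also higher in stored fruit, at a much lower level, with 140 to 144 RPKM in CCS, 231 to 262 in ACS, 207 to 218 in NCS and 20.4 to 35.7 in AH. GH17 genes were lowest in NCS, with 78.5 to 86.0 RPKM in CCS, 73.8 to 78.9 in ACS, 62.1 to 67.7 in NCS and 78.4 to 89.6 in AH, and CCS and ACS overlapped AH.

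**Figure D1:**
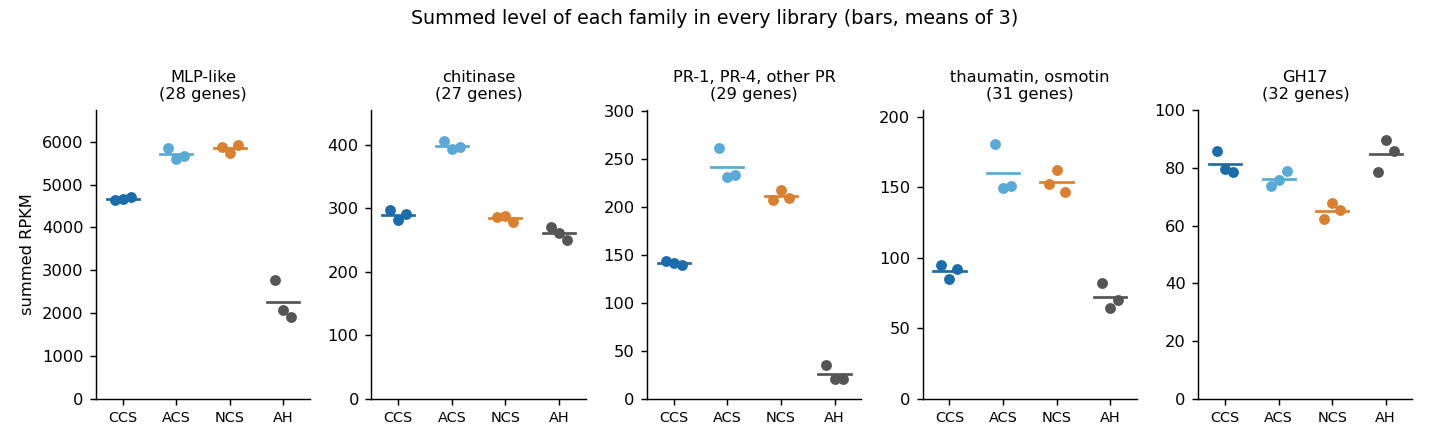
Summed RPKM of all members of each family (y axis, starting at 0) in each library of CCS, ACS, NCS and AH; points are libraries and bars are means of 3. MLP-like genes lie between 4632 and 5928 RPKM in stored fruit and between 1911 and 2774 in AH, while GH17 genes are lowest in NCS, at 62.1 to 67.7 RPKM.

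The first question was which members changed between each storage condition and harvest. A gene was counted as a DEG (differentially expressed gene) where the adjusted p from limma, over all genes tested, was 0.05 or less and the log2 fold change of RPKM + 0.1 was at least 1.5 in size. In CCS 20 of 69 tested members were higher DEGs and 1 was a lower one, where 5.47% and 1.15% of all 16622 tested genes were. In ACS 27 of 71 were higher and 1 was lower, against a background of 7.15% and 1.4% of 16672 genes. In NCS 21 of 67 were higher and 2 were lower, against 3.98% and 2.36% of 16092 genes. The 3 comparisons share the AH libraries, so their counts are not independent of each other. The median log2 change of the tested members was 0.30 in CCS, 0.57 in ACS and 0.08 in NCS, and that of all genes was 0.07, 0.01 and -0.07.

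The families differed in their counts. Of the 22 tested MLP-like genes, 11 were higher DEGs in CCS, 12 in ACS and 13 in NCS, and neither limma nor voom called a lower DEG in any of the 3. By adjusted p alone 1 of them was lower in CCS, 1 in ACS and 0 in NCS, as many as at an unadjusted p under 0.05. Chitinases had 5 higher DEGs of 11 tested in CCS, 7 of 12 in ACS and 4 of 11 in NCS, and PR-1, PR-4 and other PR genes had 4 of 6 in CCS, 5 of 7 in ACS and 3 of 6 in NCS. Thaumatin-like genes and osmotins had 3 higher DEGs of 15 in ACS, 1 of 13 in NCS and 0 of 14 in CCS, where 5 were higher and 6 lower at an unadjusted p under 0.05 and voom also called 0. Of the 3 in ACS, FvH4_3g35670 entered through its ACS libraries and was not tested in CCS or NCS over AH. GH17 genes had 1 lower DEG in CCS, 1 in ACS and 2 in NCS, and 0 higher DEGs by limma or voom, with 2 genes higher at an unadjusted p under 0.05 in CCS, 0 in ACS and 0 in NCS. Over all tested genes, in either direction, 46% in CCS, 49.9% in ACS and 44.9% in NCS had an unadjusted p under 0.05. By adjusted p alone, 8 of 16 GH17 genes fell in CCS, 7 of 15 in ACS and 11 of 15 in NCS, where 13.9%, 20.9% and 21.4% of all tested genes fell, and 1 of them rose, in CCS. Whether any of these shares differ between families was not tested.

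**Figure D2:**
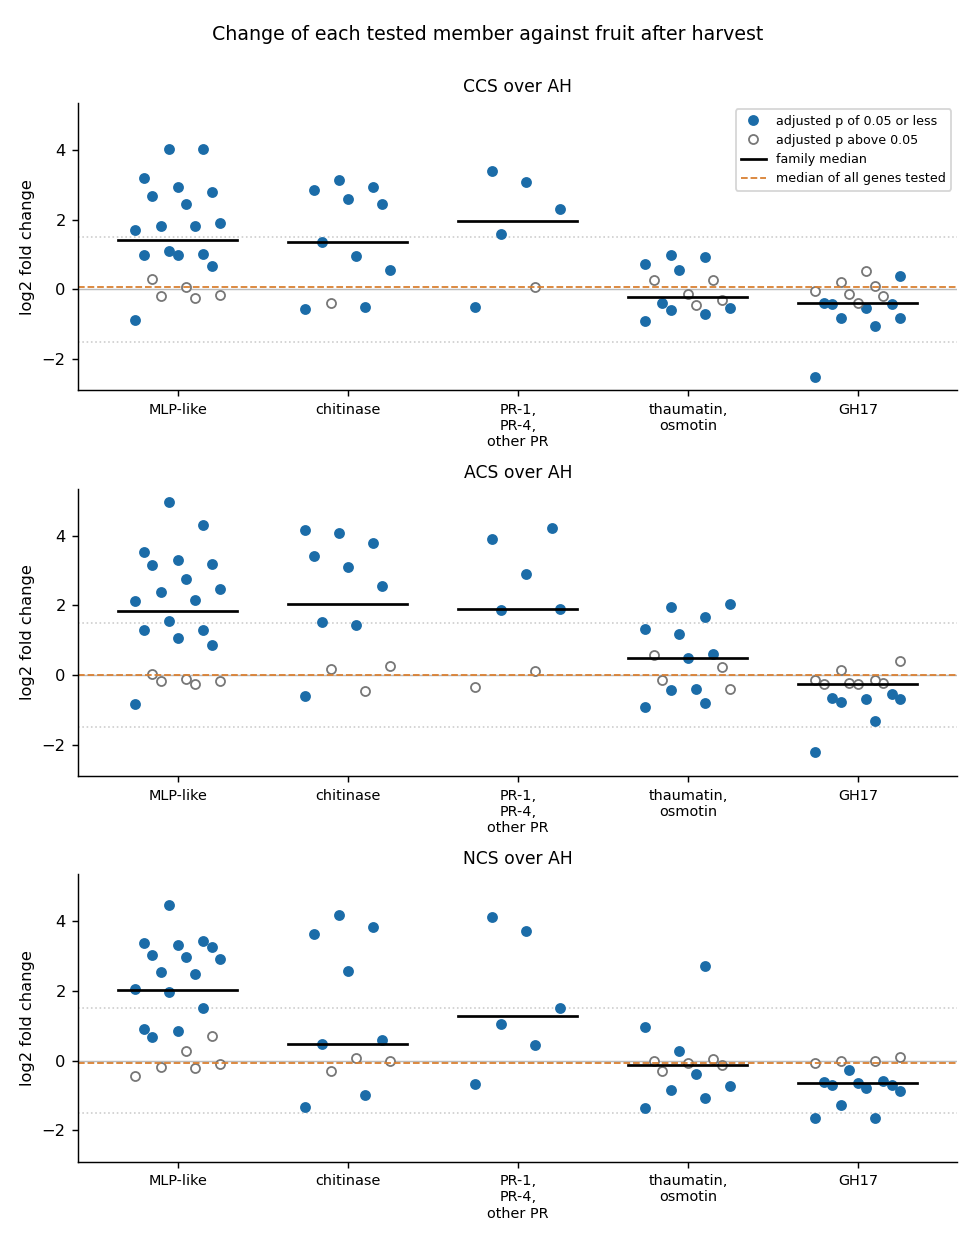
Log2 fold change of RPKM + 0.1 (y axis) of every tested member in CCS, ACS and NCS over AH, by family (x axis); filled points have an adjusted p of 0.05 or less, black bars are family medians, the dashed line is the median of all genes tested and the dotted lines mark a change of 1.5. The MLP-like medians are 1.41 in CCS, 1.84 in ACS and 2.03 in NCS, and the GH17 medians are -0.39, -0.26 and -0.64.

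The MLP-like genes were the most abundant members. Of the 22 tested, 18 carried a second description, from another database and not used by the rule, as a major allergen of cherry, apricot or apple (Pru av 1, Pru ar 1 or Mal d 1), that is as Bet v 1 homologs. IDs of 14 of them lie between FvH4_4g18830 and FvH4_4g19170, a run of 39 gene IDs of chromosome 4. Such neighbouring copies can share reads, so the values of single genes in this run are uncertain.

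The most abundant was FvH4_4g19050, described as MLP-like protein 423. It had 1492, 1496 and 1525 RPKM in CCS, 1943, 1916 and 1897 in ACS, 2004, 1950 and 2081 in NCS, and 244, 176 and 172 in AH. No stored library came near an AH library, and the CCS libraries lay below all ACS and NCS libraries. Its log2 change over AH was 2.95 ± 0.14 in CCS (SE, adjusted p = 1.6e-05, limma), 3.30 ± 0.14 in ACS (adjusted p = 7.9e-06) and 3.37 ± 0.14 in NCS (adjusted p = 8.8e-06).

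FvH4_5g00780, an MLP-like protein 423 gene whose ID lies on chromosome 5, outside the run, changed more. It had 334, 327 and 327 RPKM in CCS, 416, 385 and 391 in ACS, 437, 439 and 455 in NCS, and 27.2, 16.6 and 17.7 in AH. Stored and AH libraries were far apart, with a log2 change over AH of 4.04 ± 0.19 in CCS (adjusted p = 1.3e-05, limma), 4.30 ± 0.19 in ACS (adjusted p = 8.1e-06) and 4.47 ± 0.19 in NCS (adjusted p = 8.2e-06). FvH4_4g19700 averaged 269 ± 10 RPKM in CCS, 342 ± 16 in ACS, 424 ± 11 in NCS and 39.0 ± 7.1 in AH (SD, n = 3 each), and FvH4_2g26151 averaged 12.4 ± 0.48, 15.8 ± 1.5, 13.6 ± 1.4 and 1.31 ± 0.50 RPKM in the same order of conditions. Both rose in every storage condition, by 2.80, 3.15 and 3.45 on the log2 scale for FvH4_4g19700 in CCS, ACS and NCS, and by 3.20, 3.54 and 3.33 for FvH4_2g26151 (adjusted p of 8.5e-05 or less, limma).

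The next most abundant MLP-like genes did not pass the test. FvH4_4g18851 had 784, 768 and 774 RPKM in CCS, 845, 788 and 827 in ACS, 845, 815 and 799 in NCS, and 1174, 868 and 774 in AH, and FvH4_4g18830 averaged 409 ± 7.7, 468 ± 5.3, 428 ± 9.4 and 462 ± 71 RPKM in CCS, ACS, NCS and AH. In both, the AH libraries overlapped the stored ones, and the log2 changes over AH lay between -0.25 and 0.03 (SE 0.12 to 0.16). Both genes carry the same description as FvH4_4g19050.

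Among the PR-1, PR-4 and other PR genes, both expressed PR-4 genes had similar levels. FvH4_3g26010 had 64.1, 58.3 and 56.7 RPKM in CCS, 114, 103 and 104 in ACS, 95.8, 104 and 96.9 in NCS, and 9.73, 4.40 and 4.12 in AH. FvH4_3g05950 had 57.7, 60.6 and 62.6 RPKM in CCS, 118, 98.4 and 100.5 in ACS, 91.9, 94.9 and 94.6 in NCS, and 11.7, 5.79 and 5.08 in AH. In both genes the CCS libraries were below all ACS and NCS libraries and above all AH libraries, and AH replicate 1 was the highest AH library. The log2 change of FvH4_3g26010 over AH was 3.39 ± 0.32 in CCS (adjusted p = 2.7e-04, limma), 4.22 ± 0.32 in ACS (adjusted p = 7.6e-05) and 4.11 ± 0.31 in NCS (adjusted p = 9.5e-05), and FvH4_3g05950 changed by 3.08, 3.89 and 3.72.

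FvH4_2g02860, a CAP superfamily gene whose second description is PR-1A and the most abundant PR-1 gene, stood much lower. It averaged 2.98 ± 0.21 RPKM in CCS, 3.62 ± 0.28 in ACS, 2.84 ± 0.24 in NCS and 0.938 ± 0.19 in AH (SD, n = 3 each), with log2 changes of 1.58, 1.86 and 1.52 over AH (adjusted p of 2.5e-04 or less, limma). The CCS and NCS values were 1.04 and 0.99 with a pseudocount of 1. Of the genes described only as pathogenesis-related family protein, FvH4_2g14570 averaged 4.78 ± 0.48 RPKM in CCS, 5.37 ± 0.87 in ACS, 9.41 ± 0.51 in NCS and 6.91 ± 1.4 in AH. It was the 1 gene of this family that fell in CCS, by 0.51 on the log2 scale (adjusted p = 0.039, limma), and rose in NCS, by 0.46 (adjusted p = 0.0446), and without the filter on low values neither passed (adjusted p = 0.0632 and 0.0754). The CCS change also did not pass without any 1 of the CCS libraries (adjusted p of 0.062 to 0.123), nor the NCS change without AH replicate 2 or 3 or any 1 of the NCS libraries (0.0971 to 0.142).

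Of the chitinases that were DEGs, the basic chitinase FvH4_1g10661 (second description, endochitinase) was the most abundant. It had 70.4, 59.5 and 62.4 RPKM in CCS, 124, 124 and 124 in ACS, 91.1, 91.8 and 90.8 in NCS, and 8.59, 7.00 and 6.25 in AH. The 4 conditions did not overlap, in the order ACS, NCS, CCS and AH from high to low, and the log2 change over AH was 3.13 ± 0.14 in CCS (adjusted p = 1.0e-05, limma), 4.09 ± 0.12 in ACS (adjusted p = 2.6e-06) and 3.64 ± 0.12 in NCS (adjusted p = 4.8e-06).

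The genes described as homologs of the carrot EP3-3 chitinase, a secreted chitinase known in carrot from somatic embryo cultures, had 3 patterns among 4 expressed members. FvH4_2g31570 had 17.7, 14.4 and 16.4 RPKM in CCS, 40.3, 37.7 and 34.4 in ACS, 37.7, 40.2 and 35.8 in NCS, and 2.61, 2.11 and 1.49 in AH. FvH4_4g10600 averaged 11.4 ± 1.1 RPKM in CCS, 26.7 ± 4.7 in ACS, 27.2 ± 1.2 in NCS and 1.93 ± 0.88 in AH (SD, n = 3 each). ACS and NCS overlapped in both genes, CCS lay below them and above AH, and all changes over AH were DEGs, from 2.59 in CCS for FvH4_4g10600 to 4.17 in NCS for FvH4_2g31570 on the log2 scale.

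FvH4_4g10640 rose less, with 8.83, 8.74 and 8.57 RPKM in CCS, 12.003, 12.4 and 12.2 in ACS, 6.89, 6.67 and 6.75 in NCS, and 5.03, 4.45 and 3.93 in AH. Its 4 levels did not overlap, and here CCS lay above NCS. The log2 change over AH was 0.95 ± 0.10 in CCS (adjusted p = 5.6e-04, limma), 1.43 ± 0.10 in ACS (adjusted p = 6.7e-05) and 0.60 ± 0.10 in NCS (adjusted p = 0.00429), under the size set for a DEG.

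The next gene ID after FvH4_4g10600 did not rise. FvH4_4g10610, also an EP3-3 homolog, averaged 25.1 ± 1.9 RPKM in CCS, 26.3 ± 6.5 in ACS, 29.1 ± 1.7 in NCS and 35.4 ± 4.2 in AH, and its log2 change over AH was -0.49 ± 0.11 in CCS (adjusted p = 0.0154, limma), -0.45 ± 0.18 in ACS (adjusted p = 0.0967) and -0.28 ± 0.11 in NCS (adjusted p = 0.0918). The CCS change did not pass without CCS replicate 2 or 3 (adjusted p = 0.0518 and 0.0602), while the ACS change passed with the replicate block (0.044), in 1 fit over all 12 libraries (0.0284) and without ACS replicate 1 (0.0137). The remaining chitinase DEG of NCS was FvH4_1g01382, a gene with a chitinase insertion domain at 1.38 ± 0.26 RPKM in CCS, 2.07 ± 0.37 in ACS, 1.14 ± 0.37 in NCS and 0.108 ± 0.054 in AH. Its log2 change in NCS was 2.58 ± 0.27 (adjusted p = 4.0e-04), or 0.94 ± 0.12 with a pseudocount of 1. It passed the filter on low values there through its NCS libraries alone.

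**Figure D3:**
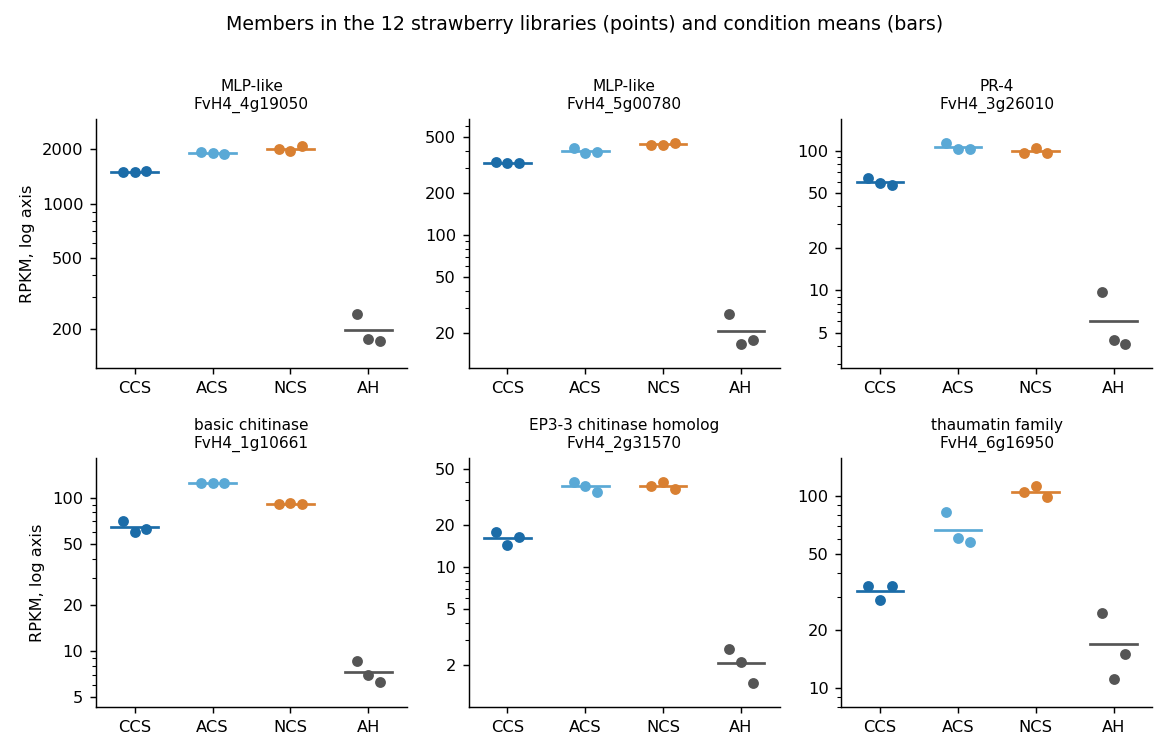
RPKM on a log axis (y) of 6 members in each library of CCS, ACS, NCS and AH (x); points are libraries and bars are means of 3. In every panel the 9 stored libraries lie above the 3 AH libraries, and CCS lies below ACS, as for FvH4_2g31570 with 14.4 to 17.7 RPKM in CCS and 34.4 to 40.3 in ACS.

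One abundant chitinase fell. FvH4_4g11930, described as a chitinase family protein and in the other database as endochitinase 1, had 135, 132 and 137 RPKM in CCS, 125, 133 and 140 in ACS, 78.0, 80.9 and 78.9 in NCS, and 201, 205 and 191 in AH. The NCS libraries were lowest, the AH libraries highest, and CCS and ACS overlapped between them. Its log2 change over AH was -0.57 ± 0.07 in CCS (adjusted p = 0.00122, limma), -0.59 ± 0.08 in ACS (adjusted p = 0.0013) and -1.33 ± 0.07 in NCS (adjusted p = 2.2e-05), which is below the size set for a DEG. The summed chitinase level, most of which this gene held in AH, was 281 to 298 RPKM in CCS, 393 to 406 in ACS, 279 to 287 in NCS and 250 to 270 in AH.

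Among thaumatin-like genes, FvH4_6g16950, whose second description is thaumatin-like protein 1a (PR-5a), was the most abundant and had its highest level in NCS. It had 33.9, 28.7 and 33.9 RPKM in CCS, 82.7, 60.6 and 57.8 in ACS, 105, 113 and 99.4 in NCS, and 24.6, 11.2 and 15.1 in AH. No condition overlapped another, and the log2 change over AH was 0.99 ± 0.27 in CCS (adjusted p = 0.0292, limma), 2.03 ± 0.30 in ACS (adjusted p = 0.0017) and 2.71 ± 0.27 in NCS (adjusted p = 3.1e-04). The CCS change did not pass when genes with low values were kept in the table (adjusted p = 0.051), or without AH replicate 2 or 3 or any 1 of the CCS libraries (0.0617 to 0.091).

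FvH4_2g38320 averaged 21.4 ± 1.9 RPKM in CCS, 26.8 ± 1.6 in ACS, 16.3 ± 1.1 in NCS and 17.7 ± 0.94 in AH, and FvH4_1g11720 averaged 2.56 ± 0.36, 3.86 ± 0.82, 4.05 ± 0.34 and 4.22 ± 0.34 RPKM in the same order. FvH4_2g38320 rose in ACS by 0.60 on the log2 scale (adjusted p = 0.00162, limma) and FvH4_1g11720 fell in CCS by 0.71 (adjusted p = 0.0042). Of the 15 thaumatin-like genes and osmotins tested, 5 carried a glucan endo-1,3-β-glucosidase as their second description, so that both sources disagree on what these 5 encode.

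GH17 proteins include β-1,3-glucanases, and 15 of the 17 tested in any comparison carried that name as second description. The most abundant, FvH4_3g23410, had 40.1, 34.6 and 33.6 RPKM in CCS, 29.2, 29.7 and 32.2 in ACS, 25.6, 28.9 and 27.2 in NCS, and 26.6, 28.0 and 28.0 in AH. The CCS and ACS libraries lay above the AH libraries and NCS overlapped them. The log2 change over AH was 0.38 ± 0.09 in CCS (adjusted p = 0.0182, limma) and 0.14 ± 0.08 in ACS (adjusted p = 0.201), and the CCS value was not past the threshold after median-of-ratios scaling (0.28, adjusted p = 0.0706), with the replicate block (0.0562), or without AH replicate 2, CCS replicate 1 or CCS replicate 2 (0.0513 to 0.0578). FvH4_2g30580 averaged 12.6 ± 0.26 RPKM in CCS, 12.4 ± 0.57 in ACS, 13.6 ± 1.0 in NCS and 13.7 ± 1.0 in AH, and its libraries overlapped AH in every condition.

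FvH4_3g36150 had 7.28, 6.27 and 6.41 RPKM in CCS, 9.68, 9.96 and 9.81 in ACS, 4.45, 5.25 and 4.75 in NCS, and 10.1, 13.6 and 11.8 in AH. No condition overlapped another, in the order AH, ACS, CCS and NCS from high to low. The log2 change of this gene in NCS over AH was -1.27 ± 0.13 (adjusted p = 3.4e-04, limma). FvH4_3g00190 fell in all 3 conditions, by 0.39, 0.69 and 0.64 in CCS, ACS and NCS, although the CCS change did not pass without AH replicate 2 or CCS replicate 2 (adjusted p = 0.0512 and 0.0567, limma). FvH4_2g08690 fell in NCS by 0.69 (adjusted p = 0.00259). The 2 lower DEGs of NCS were FvH4_7g22480, with 1.43 ± 0.16 RPKM in CCS, 1.77 ± 0.13 in ACS, 0.610 ± 0.082 in NCS and 2.09 ± 0.22 in AH (log2 change in NCS -1.63 ± 0.12, adjusted p = 8.0e-05), and FvH4_3g01880, with 1.08 ± 0.17, 0.734 ± 0.079, 0.573 ± 0.056 and 2.02 ± 0.36 RPKM (log2 change in NCS -1.64 ± 0.14, adjusted p = 1.8e-04). These changes were -0.94 and -0.93 with a pseudocount of 1. The second description of FvH4_3g01880 is DNA-directed RNA polymerase subunit beta, so that both sources disagree on what it encodes. Members of other families, such as FvH4_2g26400, carried this second description too.

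The 1 lower DEG of CCS and of ACS was the same GH17 gene, FvH4_4g13120, whose second description names the anther glucanase A6. It had 0.0685, 0.0784 and 0.0399 RPKM in CCS, 0.0800, 0.0938 and 0.128 in ACS, 0.774, 0.871 and 0.734 in NCS, and 0.807, 0.882 and 0.791 in AH. Both cold-stored groups were far below the groups that saw no cold, and NCS overlapped AH. The log2 change over AH was -2.52 ± 0.11 in CCS (adjusted p = 1.1e-05, limma) and -2.21 ± 0.11 in ACS (adjusted p = 1.2e-05), and these understate the change because the pseudocount is of the size of the cold-stored values. With a pseudocount of 1 they were -0.78 and -0.73, and the gene passed the filter on low values through its AH libraries alone.

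Only 3 of the 9 genes written in that way as β-1,3-glucanase were tested against AH. FvH4_6g24680 averaged 0.587 ± 0.13 RPKM in CCS, 0.474 ± 0.12 in ACS, 0.277 ± 0.029 in NCS and 1.13 ± 0.14 in AH and was a lower DEG in NCS (log2 change -1.70 ± 0.11, adjusted p = 5.1e-05, limma, or -0.74 with a pseudocount of 1). FvH4_5g06210 fell by 0.88 in CCS, 1.37 in ACS and 1.42 in NCS (0.32, 0.44 and 0.44 with a pseudocount of 1), and FvH4_3g28390 did not pass in any of the 3. FvH4_5g06210 passed the filter on low values through its AH libraries alone, and so did FvH4_6g24680 in NCS over AH.

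In the AH group, 1 library stood apart for the members. Of the members that were higher DEGs, AH replicate 1 was the highest AH library for 18 of 20 in CCS, 24 of 27 in ACS and 20 of 21 in NCS, and over all higher DEGs of the table that share was 54.0%, 52.9% and 59.8%. Without this library 22 members were DEGs in CCS, 30 in ACS and 23 in NCS.

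The next question was how cold-stored fruit differed from fruit held at 20 °C, a comparison in which temperature and length of storage cannot be told apart. In ACS over NCS, 6 of 69 tested members were higher DEGs and 2 lower ones, where 3.1% and 0.226% of all 16341 genes were. In CCS over NCS, 1 of 68 was higher and 3 were lower, against 3.05% and 0.677% of 16405 genes. The largest difference was in FvH4_7g15680, a chitinase A gene (class III chitinases in Arabidopsis), which had 16.04, 17.8 and 17.6 RPKM in CCS, 15.2, 20.2 and 20.2 in ACS, 1.66, 1.31 and 1.54 in NCS, and 2.58, 3.28 and 3.33 in AH. Its second description is a probable intraflagellar transport protein, so that both sources disagree on what it encodes. Cold-stored fruit of both gases overlapped each other and lay far above NCS and AH, and NCS lay below AH. The log2 change over NCS was 3.43 ± 0.09 in CCS (adjusted p = 2.7e-06, limma) and 3.54 ± 0.14 in ACS (adjusted p = 1.0e-05), and over AH it was 2.45 in CCS, 2.56 in ACS and -0.98 in NCS (adjusted p = 0.00137 for NCS).

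Osmotins are thaumatin-like proteins first described in salt-adapted tobacco cells. Both osmotin 34 genes named here, of 5 members with that description, were highest in the air-cold stored fruit. The osmotin 34 gene FvH4_5g01820 had 15.8, 15.5 and 15.6 RPKM in CCS, 38.1, 33.8 and 37.5 in ACS, 9.77, 9.04 and 9.07 in NCS, and 11.4, 7.31 and 10.1 in AH. FvH4_5g01840, also osmotin 34, had 2.92, 3.29 and 3.33 RPKM in CCS, 10.2, 7.02 and 7.19 in ACS, 2.00, 1.84 and 1.90 in NCS, and 4.35, 3.12 and 3.08 in AH. In both, ACS was above every library of the other 3 conditions. Over NCS the log2 change was 0.74 ± 0.05 in CCS (adjusted p = 7.4e-05, limma) and 1.96 ± 0.07 in ACS (adjusted p = 6.5e-06) for FvH4_5g01820, and 0.70 ± 0.07 in CCS (adjusted p = 3.2e-04) and 2.01 ± 0.15 in ACS (adjusted p = 1.1e-04) for FvH4_5g01840.

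Further higher DEGs in ACS over NCS were FvH4_4g19170 and FvH4_2g14470. FvH4_4g19170, an MLP-like gene at the end of the chromosome 4 run, had 8.20, 8.77 and 7.61 RPKM in CCS, 16.2, 15.6 and 15.8 in ACS, 4.27, 2.82 and 4.32 in NCS, and 0.522, 0.365 and 0.362 in AH. FvH4_2g14470, a pathogenesis-related family protein, had 11.6, 13.1 and 11.7 RPKM in CCS, 17.4, 19.1 and 18.4 in ACS, 5.28, 4.79 and 4.86 in NCS, and 2.57, 2.11 and 2.37 in AH. Both genes had 4 separate levels in the order ACS, CCS, NCS and AH, and in ACS over NCS they changed by 2.06 ± 0.16 (adjusted p = 1.6e-04, limma) and 1.86 ± 0.06 (adjusted p = 6.5e-06). The sixth was the thaumatin-like gene FvH4_3g35670, at 0.845 to 1.74 RPKM in ACS and 0.251 to 0.364 in NCS, with a log2 change of 1.73, or 0.79 with a pseudocount of 1. This gene passed the filter on low values through its ACS libraries alone.

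The lower DEGs were fewer. The MLP-like gene FvH4_4g19010 was highest in NCS, with 35.5, 33.1 and 32.8 RPKM in CCS, 29.5, 27.3 and 28.8 in ACS, 122, 128 and 123 in NCS, and 18.6, 14.2 and 14.3 in AH. Its CCS and ACS libraries also lay above its AH libraries. The NCS libraries were far above every other library, and the log2 change over NCS was -1.88 ± 0.05 in CCS (adjusted p = 3.1e-06, limma) and -2.12 ± 0.05 in ACS (adjusted p = 2.6e-06). The GH17 gene FvH4_4g13120 was a lower DEG in both, at -2.46 in CCS and -2.16 in ACS (-0.75 and -0.70 with a pseudocount of 1). Here it passed the filter on low values through its NCS libraries alone. In CCS the thaumatin-like gene FvH4_6g16950 was the third, with a log2 change over NCS of -1.72 ± 0.09 (adjusted p = 2.2e-05).

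**Figure D4:**
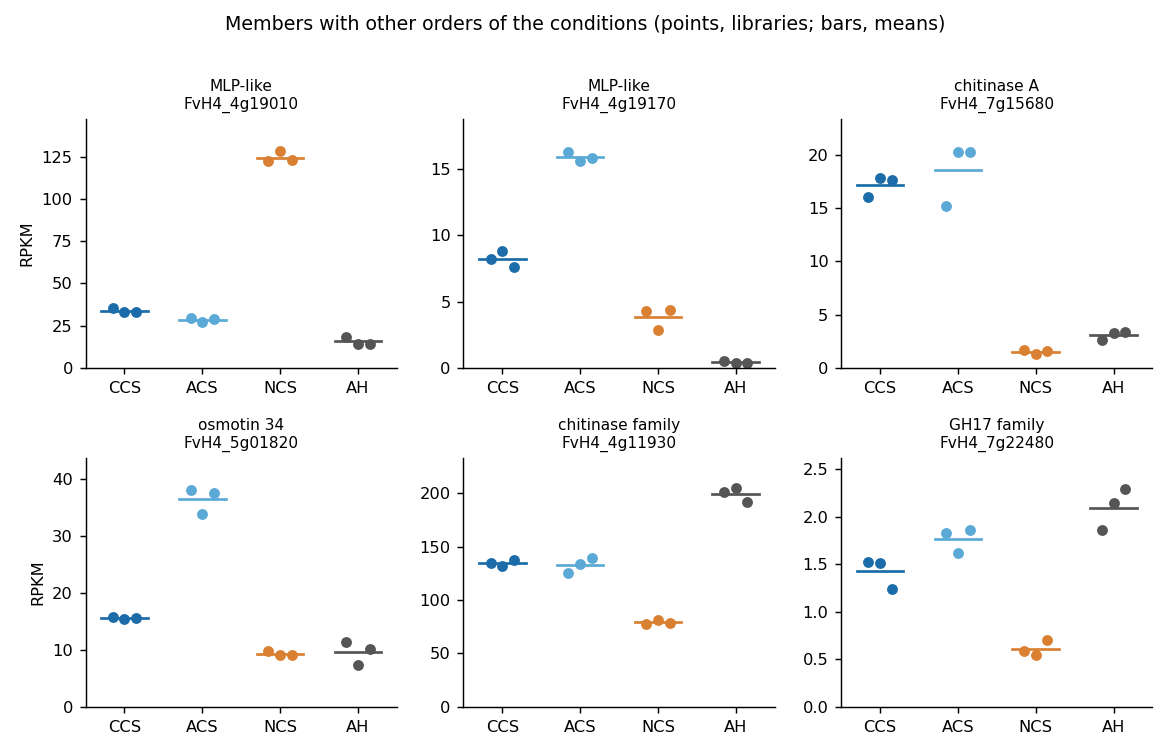
RPKM (y axis, starting at 0) of 6 members in each library of CCS, ACS, NCS and AH (x); points are libraries and bars are means of 3. FvH4_4g19010 is highest in NCS at 122 to 128 RPKM, FvH4_7g15680 reaches 15.2 to 20.2 RPKM in both cold-stored groups against 1.31 to 3.33 in NCS and AH, and FvH4_5g01820 is highest in ACS at 33.8 to 38.1 RPKM.

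By adjusted p alone, 23 members rose and 22 fell in CCS over NCS, and 30 rose and 9 fell in ACS over NCS, where 37.6% and 14% and then 30.9% and 17.1% of all tested genes did so. Scaling by the median of ratios moved the median of all genes by -0.18 in CCS over NCS and by -0.11 in ACS over NCS. With it the members' median in CCS over NCS was -0.19 instead of 0.02, and the MLP-like median in ACS over NCS was -0.02 instead of 0.08. The direction of small changes against NCS thus depended on the scaling.

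The last question was what the CO2 pretreatment changed in cold-stored fruit. No member was a DEG in CCS over ACS by limma, where 0.024% of 16680 genes were higher and 0.294% lower DEGs. At an unadjusted p under 0.05, 47 of the 70 tested members differed (67.1%, against 42% of all genes), and limma-voom on the reads recovered from the RPKM steps called 1 member. By adjusted p alone, 35 members were lower and 5 higher in CCS, where 10.3% of all genes were lower and 18.4% higher. The median log2 change was -0.30 over members and 0.07 over all genes, and 49 of the 70 were below 0. Leaving out 1 library at a time gave 25 to 31 lower members.

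The lower members came from 5 families in different numbers. Of the MLP-like genes 15 of 22 were lower, of the chitinases 7 of 12, of the thaumatin-like genes and osmotins 7 of 15, of the PR-1, PR-4 and other PR genes 5 of 7 and of the GH17 genes 1 of 14. The family medians were -0.31, -0.56, -0.33, -0.60 and 0.17 in that order. The 15 lower MLP-like genes changed by between -0.95 ± 0.06 for FvH4_4g19170 (adjusted p = 4.9e-04, limma) and -0.20 ± 0.04 for FvH4_4g18830 (adjusted p = 0.0219), with -0.35 ± 0.04 for FvH4_4g19050 (adjusted p = 0.00315). The call on FvH4_4g18830 was lost with no filter (adjusted p = 0.0602), with the replicate block (0.0564), in 1 fit over all 12 libraries (0.152) and without ACS replicate 1 or 2 or any 1 of the CCS libraries (0.0502 to 0.0794). Of the 7 other tested MLP-like genes 1 was higher, and the widest error was that of FvH4_4g19000, at 0.57 ± 0.76.

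Members that changed by at least 1 on the log2 scale were 6 lower and 1 higher ones, where 0.965% and 0.33% of all genes passed. With a pseudocount of 1 these were 5 lower and 0 higher members, where 0.492% and 0.108% of all genes passed. With median-of-ratios scaling they were 9 lower and 1 higher, where 1.19% and 0.23% of all genes passed. The EP3-3 chitinases FvH4_2g31570 and FvH4_4g10600 both had a log2 change of -1.21, with SE of 0.10 and 0.14 (adjusted p = 7.8e-04 and 0.00241, limma). The osmotin 34 genes FvH4_5g01820 and FvH4_5g01840 changed by -1.21 ± 0.06 (adjusted p = 3.1e-04) and -1.31 ± 0.15 (adjusted p = 0.0027), and the thaumatin-like gene FvH4_6g16950 by -1.04 ± 0.15 (adjusted p = 0.00565). No CCS library of these 5 genes, whose values are given above, overlapped an ACS library. The genes were picked by their change in these same libraries, so this separation adds no support.

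With a pseudocount of 0.1 the largest change was in FvH4_7g16730, a rare pathogenesis-related family gene with 0.174, 0.218 and 0.153 RPKM in CCS, 0.736, 0.576 and 0.598 in ACS, 0.340, 0.287 and 0.279 in NCS, and 0.137, 0.117 and 0.0462 in AH. These values rest on 126 reads in the CCS libraries, 461 in ACS, 199 in NCS and 85 in AH. CCS lay below ACS and NCS and above AH, and the log2 change over ACS was -1.39 ± 0.12 (adjusted p = 9.4e-04, limma), or -1.83 ± 0.20 by voom, which made it the 1 member called there. With a pseudocount of 1 it was -0.47 ± 0.05, smaller than the changes of the 5 genes above, and the gene passed the filter on low values through its ACS libraries alone. Its second description is a probable brefeldin A-inhibited guanine nucleotide-exchange protein, so that both sources disagree on what it encodes.

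Below that size stood the basic chitinase FvH4_1g10661, at -0.95 ± 0.07 (adjusted p = 6.3e-04, limma), and the PR-4 genes FvH4_3g26010 and FvH4_3g05950, at -0.84 ± 0.07 (adjusted p = 9.2e-04) and -0.80 ± 0.08 (adjusted p = 0.0018). The chitinase A gene FvH4_7g15680 and the chitinase FvH4_4g11930 did not pass, at -0.10 ± 0.12 (adjusted p = 0.565) and 0.02 ± 0.06 (adjusted p = 0.804).

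The 5 higher members were the chitinase A gene FvH4_7g30230, the GH17 genes FvH4_3g01880, FvH4_4g00080 and FvH4_3g00190, and the MLP-like gene FvH4_4g19010. FvH4_7g30230, whose second description is a lysozyme, had 1.35, 1.87 and 1.58 RPKM in CCS, 0.798, 0.883 and 0.473 in ACS, 0.575, 0.560 and 0.675 in NCS, and 0.740, 0.436 and 0.544 in AH. CCS stood above every other library, and ACS, NCS and AH overlapped. The log2 change over ACS was 1.08 ± 0.22 (adjusted p = 0.0171, limma), or 0.60 ± 0.11 with a pseudocount of 1, and it did not pass without CCS replicate 2 (adjusted p = 0.0588). The other 4 changed by 0.50, 0.35, 0.30 and 0.24, and only 2 members were higher with median-of-ratios scaling and 2 with no filter on low values. The number of higher members was 2 without ACS replicate 2, 3 without CCS replicate 1, 2 without CCS replicate 2 and 1 without CCS replicate 3.

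**Figure D5:**
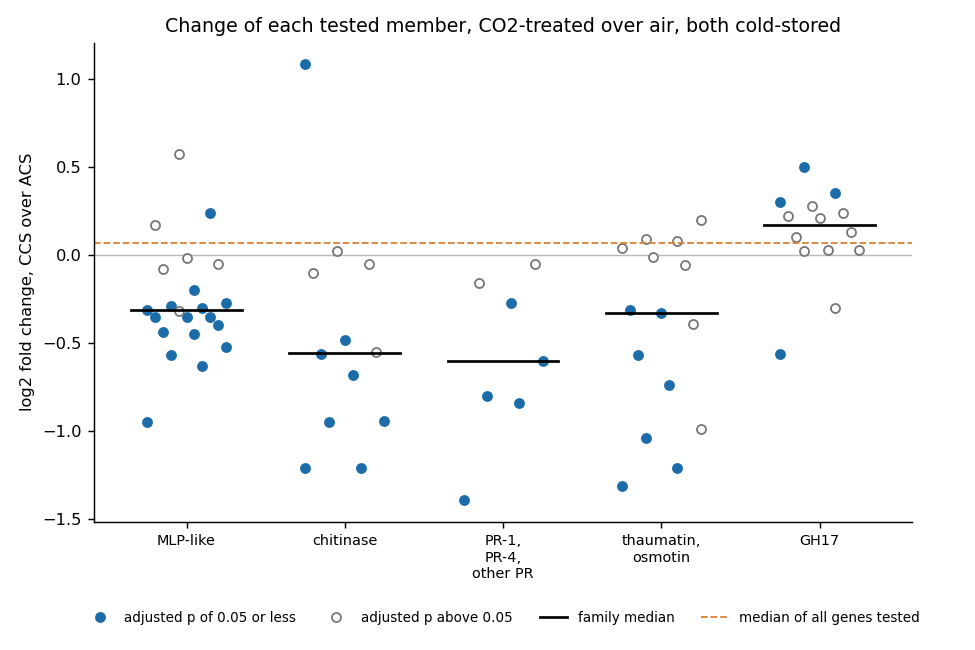
Log2 fold change of RPKM + 0.1 in CCS over ACS (y axis) of the 70 tested members by family (x axis); filled points have an adjusted p of 0.05 or less, black bars are family medians and the dashed line is the median of all genes tested, 0.07. Points lie mostly below 0 except in the GH17 family, whose median is 0.17, and the highest point is FvH4_7g30230 at 1.08.

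Other genes of the same responses were counted by lists of description words. In the list of PR classes under other names (45 genes, mostly protease inhibitors), 4 of 15 tested genes were higher DEGs in CCS over AH, 5 of 14 in ACS and 5 of 15 in NCS, where 5.47%, 7.15% and 3.98% of all tested genes were. The Kunitz protease inhibitor FvH4_3g17480 had 5.13, 5.40 and 5.33 RPKM in CCS, 15.4, 14.2 and 12.9 in ACS, 14.1, 12.9 and 11.9 in NCS, and 1.06, 0.754 and 0.596 in AH. CCS lay below ACS and NCS, which overlapped, and above AH, with a log2 change of -1.40 ± 0.07 in CCS over ACS (adjusted p = 3.5e-04, limma). The list of chitin perception and salicylate signalling genes (26 genes, 19 tested) had 4 higher DEGs in CCS, 6 in ACS and 0 in NCS by limma or voom, against the same background. An unadjusted p under 0.05, in either direction, was reached by 46% of all tested genes in CCS, 49.9% in ACS and 44.9% in NCS. At that limit 5 genes of this list were higher in NCS and 4 lower. The callose synthesis list (10 genes, 7 tested), whose product β-1,3-glucanases cut, had 0 DEGs over AH by limma or voom, against the same DEG background. At an unadjusted p under 0.05, against the shares just given, 0 of its genes were higher in CCS, 2 in ACS and 0 in NCS, and 1, 0 and 1 were lower. By adjusted p alone 4 were lower and 0 higher in CCS over ACS, where 10.3% and 18.4% of all genes were. In ACS over NCS 4 were higher and 0 lower, where 30.9% and 17.1% of all genes were.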

How the data were processed

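RNA-seq libraries of 12 strawberry samples (4 conditions of 3) were sequenced as paired reads. Per the labels and the study's methods, the authors called bases with CASAVA 1.8, checked reads with FastQC, trimmed them with cutadapt 1.16.6, aligned them to the Fragaria vesca genome with HISAT2 2.1.0 and counted them per gene in SeqMonk. The deposited values are RPKM per gene, scaled by the authors to gene length and mapped reads, with 6 further columns of their own log2 fold changes, which were not used. For their own tests the authors counted reads over exons without regard to strand. Their RPKM came from a separate count of all reads per gene probe, so overlapping antisense genes may not be told apart.

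RPKM values were taken as log2(RPKM + 0.1). Each pair of conditions was tested on its own 6 libraries with limma 3.58.1 (R 4.3.3), on genes that reached 0.5 RPKM in 3 or more of these, with Benjamini-Hochberg adjustment over all genes tested, a limit of 0.05 and a log2 change of at least 1.5. Genes could pass the limit of 0.5 RPKM through the libraries of 1 group alone, and the DEG counts include such genes. The limits and the pairwise design follow the study, and fold changes on this scale understate the change of low genes. Tested on simulated data made from NCS and AH, the fit called 199 of 200 changed genes among 16078 and 0 unchanged ones. The changed genes averaged at least 1 RPKM, all changed by more than the limit of 1.5, and their spread was set in advance. This simulation therefore cannot tell how the fit does on smaller changes, on lower genes or on calls by adjusted p alone. Values were whole multiples of 1 read within 0.02 reads for 30993 of 30995 genes above 0, which gave the library totals (64.2 to 119.9 M reads, 94.0% to 95.9% on genes) and recovered reads for limma-voom. Groups of 3 cannot give an exact permutation p below 0.1, so no such test was run.

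Named members were the 5 most abundant of each family, the 5 largest rises and falls among the DEGs of each comparison, and every member with a log2 change of at least 1 at an adjusted p of 0.05 or less in CCS over ACS. FvH4_1g01382, FvH4_2g26400, FvH4_3g35670, FvH4_4g00080, FvH4_4g10640, FvH4_4g19000 and genes that are no members were named after their values were seen. The members and lists were chosen with earlier results of these data known. Alternatives were a pseudocount of 1, no filter, median-of-ratios scaling, the replicate number as a block, 1 fit over all 12 libraries, eBayes with trend, voom, and leaving out each library. No sequence of a member was used here. Analyses used Python 3.11.15 with numpy 2.4.6, pandas 2.3.3, numba 0.67.0 and matplotlib 3.10.9.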

Additional observations from a re-analysis of the deposited data

How the results depend on the processing

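Of the 200 results on named members, 144 passed the adjusted p of 0.05. Of the 2600 alternative values of these results 2434 were labelled the same, 105 weaker, 30 stronger, 31 moved and 0 reversed. Changes near 0 that did not pass could still change sign. The value of FvH4_4g11930 in CCS over ACS, for example, went from above 0 to -0.05 with median-of-ratios scaling. Of the 144, 20 were lost under at least 1 alternative with all libraries and 19 on leaving out 1 library. Members called were 18 in NCS over AH, 21 in ACS over AH, 16 in CCS over AH, 6 in ACS over NCS, 3 in CCS over NCS and 0 in CCS over ACS with a pseudocount of 1. In CCS over ACS voom called 1 member against 0 by limma, and the members higher by adjusted p were 2 with no filter and 2 with median-of-ratios scaling, against 5. The cause was not tested. Leaving out 1 library gave 21 to 23 members called in NCS over AH, 25 to 30 in ACS over AH, 20 to 22 in CCS over AH, 8 to 9 in ACS over NCS, 4 to 5 in CCS over NCS and 0 in CCS over ACS, with 25 to 31 lower and 1 to 4 higher members by adjusted p in the last. Same-numbered libraries share only a number (correlations of their deviations from -0.47 to 0.39, and no comparison had all 3 above 0.1). Under the replicate block 23, 28, 21, 8, 4 and 0 members were called in the 6 comparisons in the order above, with 32 lower and 4 higher by adjusted p in CCS over ACS. Members under the filter were not tested.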

Other observations

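Of the 19 tested genes of the chitin perception and salicylate signalling list, 3 were higher DEGs and 0 lower ones over NCS in CCS and in ACS (3.05% and 3.1% of all genes were higher DEGs), voom also calling 0 lower. At an unadjusted p under 0.05, 2 and 4 genes were lower and 11 and 11 higher, where 58.4% and 55.9% of all genes passed in either direction. By adjusted p alone 11 rose and 1 fell in CCS, and 9 rose and 3 fell in ACS, where 37.6% and 14% and then 30.9% and 17.1% of all tested genes did so. FvH4_6g50162, named SAG101 after a senescence-associated gene, a lipase-like partner of EDS1 in Arabidopsis immunity, had 69.2, 66.7 and 63.3 RPKM in CCS, 58.0, 65.2 and 66.2 in ACS, 9.40, 9.003 and 8.94 in NCS, and 10.6, 8.46 and 8.34 in AH. Both cold-stored groups lay far above NCS and AH, which overlapped, with a log2 change over NCS of 2.85 ± 0.05 in CCS (adjusted p = 1.3e-06, limma) and 2.78 ± 0.07 in ACS (adjusted p = 2.2e-06). FvH4_6g50160, also named SAG101, averaged 44.5 RPKM in CCS, 45.3 in ACS, 21.2 in NCS and 20.0 in AH. By adjusted p alone it rose over NCS, by 1.07 in CCS and 1.09 in ACS. The less abundant FvH4_2g18461, of the same name, changed over NCS by 2.49 in CCS and 2.52 in ACS. FvH4_6g38830, an NPR1-like protein 3 gene (a salicylate receptor in Arabidopsis), changed by 2.04 and 2.14. With a pseudocount of 1 the changes were 1.38 and 1.41 for FvH4_2g18461, and 0.80 and 0.85 for FvH4_6g38830. Both FvH4_2g18461 and FvH4_6g38830 passed the filter on low values through their cold-stored libraries alone. The more abundant NPR1-like gene FvH4_3g11950 did not pass over NCS, at -0.09 in CCS and -0.01 in ACS. FvH4_6g38820, also NPR1-like and more abundant, changed by -0.15 in CCS (adjusted p = 0.0596, limma) and -0.19 in ACS (adjusted p = 0.0387). FvH4_3g01490, named chitin elicitor receptor kinase 1, fell over NCS by 0.42 in CCS and 0.61 in ACS (adjusted p = 0.0068 and 0.00108, limma). The more abundant gene of that name, FvH4_6g42640, did not pass, at 0.11 in CCS and 0.16 in ACS. In CCS over ACS FvH4_6g50162, FvH4_2g18461 and FvH4_6g38830 did not pass, at 0.07 ± 0.07 (adjusted p = 0.458), -0.03 ± 0.10 (adjusted p = 0.83) and -0.10 ± 0.07 (adjusted p = 0.318). FvH4_2g16381, a LysM domain GPI-anchored protein whose Arabidopsis relatives bind chitin, had 99.6, 89.2 and 94.9 RPKM in CCS, 124, 129 and 134 in ACS, 67.5, 73.4 and 68.9 in NCS, and 33.9, 35.5 and 37.4 in AH, with no overlap between conditions.

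Of 8 potato inhibitor I-type serine protease inhibitors (the PR-6 class), 5 were tested in CCS over ACS, and 4 of them were lower in CCS by adjusted p (10.3% of all genes were), while FvH4_4g02840 did not pass, at -0.12 ± 0.42 (adjusted p = 0.857, limma). FvH4_4g02870 had 0.416, 0.344 and 0.181 RPKM in CCS, 1.57, 1.86 and 0.874 in ACS, 2.85, 2.25 and 2.95 in NCS, and 0.0558, 0.152 and 0.102 in AH. It was a lower DEG in CCS over ACS (log2 change -1.87 ± 0.33, adjusted p = 0.00999, limma), and FvH4_4g02860, at -1.44 ± 0.21 (adjusted p = 0.00554), stayed under the size set for a DEG. With a pseudocount of 1 these changes were -0.87 and -0.86. In this comparison FvH4_4g02870 passed the filter on low values through its ACS libraries alone.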
